A study of Phaffia rhodozyma with 29 samples.

Results

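ChIP-exo of a strain with a FLAG-tagged Sre1 gave 206 regions that a shape-based peak list contained and an enrichment-based list of the same libraries did not. The regions were the entries of the shape-scored list of CBS_FLAG-SRE1N that shared no base, on the same contig, with any MACS2 peak of that strain. They were 206 of the 552 entries of that list, or 37.3%, and 206 of the 603 shape-scored entries of both tagged strains. They are called unmatched entries here, and the 346 entries that shared at least 1 base with a MACS2 peak are called matched entries. Membership was set by measured peak positions, so every value from these tables describes the unmatched entries and none is a test of them.

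The organism was Xanthophyllomyces dendrorhous (Phaffia rhodozyma), a basidiomycete yeast that is red from its carotenoids. Peak tables of 2 strains were used. CBS_FLAG-SRE1N carries a FLAG epitope on the Sre1 transcription factor, and CBS_cyp61-_FLAG-SRE1 carries a FLAG-tagged Sre1 in a strain that the design text names cyp61-. Both derive from the strain CBS 6938, were grown under standard conditions to late exponential phase, and were immunoprecipitated with an antibody from Sigma-Aldrich in 3 libraries each. How the SRE1N construct differs from SRE1, and whether the tagged protein is made at its natural level, is not stated in the labels.

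Sre1 belongs to the sterol regulatory element-binding proteins, membrane-anchored factors whose N-terminal part is released when sterols run low and then enters the nucleus to activate sterol synthesis genes. CYP61 is the sterol desaturase that acts late in ergosterol synthesis. In ChIP-exo an exonuclease trims the immunoprecipitated DNA up to the cross-linked protein, so that reads pile up at the borders of a bound site. An enrichment caller such as MACS2 asks whether a window holds more reads than the local background. A shape-based caller instead scores how closely the read profile around a position resembles a typical peak, so the 2 approaches can differ at shallow sites.

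Each table stands for all 3 libraries of its strain, so no value of a peak has a replicate error, and read depth is not given in these tables. The shape-scored list is limited by its title to changed genes but pairs no entry with a gene, and gene positions and genome sequence were not used here. The regions are therefore given by contig and position on the assembly QXden1.PacBioOnly. Scores, widths and fold enrichments are the authors' own values for each peak and were used only within a list or side by side. Control libraries (IgG, and the sre1- strain) were not analysed here, and whether the regions are specific to the tagged protein was not tested. Intervals of shares are 95% Wilson intervals, intervals of medians are 95% order-statistic intervals, and both cover counting error over entries only.

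Unmatched entries had low shape scores. Their score ran from 2.46 to 12.0 with a median of 4.72 (interval 4.49 to 4.92, n = 206) and quartiles of 4.00 and 5.91. Matched entries ran from 4.00 to 44.2 with a median of 12.4 (11.4 to 13.2, n = 346). None of the unmatched entries scored above the matched median, and 8 matched entries scored below the unmatched median. Below the lowest matched score lay 52 unmatched entries. The highest unmatched score stood apart from the next, 9.42, and 123 matched entries scored under 10, where all other unmatched ones lay.

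**Figure D1:**
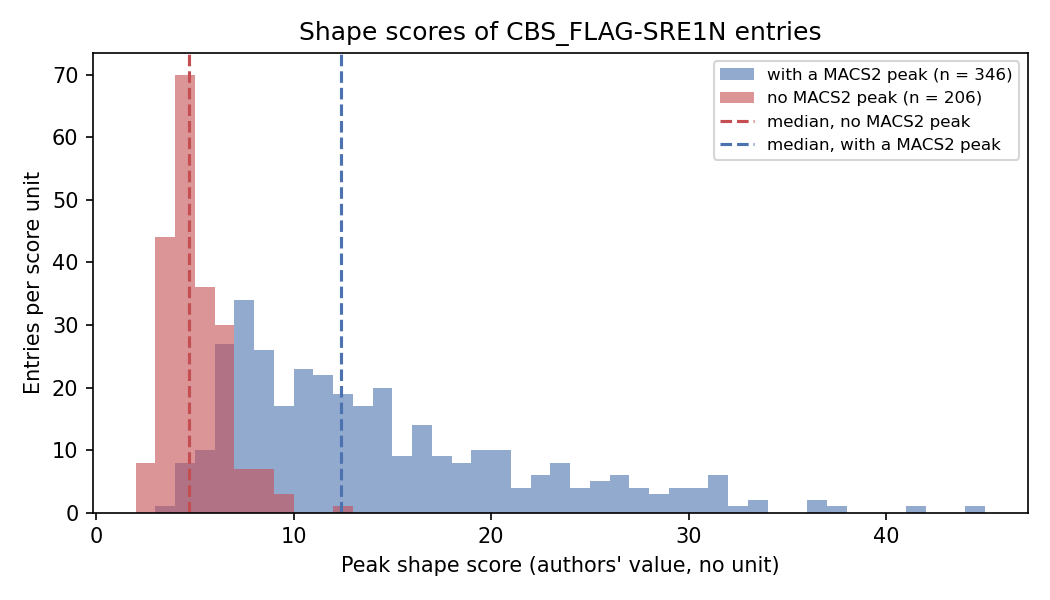
Peak shape score (horizontal axis, no unit) against the number of entries per score unit, for the 206 entries without a MACS2 peak (red) and the 346 with one (blue), with dashed lines at the medians of 4.72 and 12.4. The red entries lie below a score of 10 except for 1 at 12.0, and the blue ones reach 44.2.

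The share of entries without a MACS2 peak was lower in bands of higher score. It was 98.1% of the 53 entries scoring under 4 (90.1% to 99.7%), 89.7% of 78 between 4 and 5, and 78.3% of 46 between 5 and 6. Between 6 and 7 the list was divided almost evenly, with 30 unmatched and 27 matched entries. Above that band unmatched entries were a minority, at 7 of 41 between 7 and 8 and 10 of 53 between 8 and 10. Of 224 entries scoring 10 or more, 1 was unmatched. The deposited p-value adds nothing to this order. It equalled the upper tail of a standard normal distribution at the score to within 0.172% in the 550 entries whose p-value was above 0, so score and p-value are 1 measurement.

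**Figure D2:**
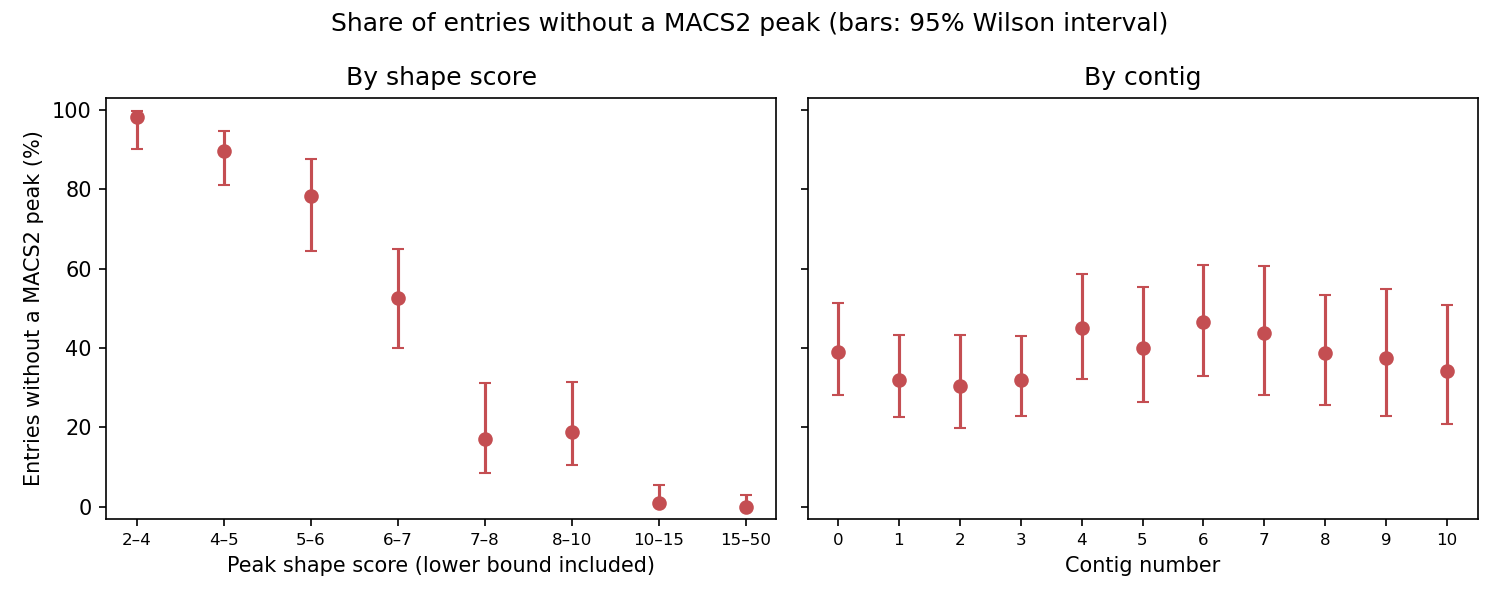
Percentage of shape-scored CBS_FLAG-SRE1N entries without a MACS2 peak, by band of shape score (left) and by contig (right), with 95% Wilson intervals as bars. The share goes from 98.1% in the lowest band to 0 of 122 entries in the highest, while the contigs lie between 30.4% and 46.7%.

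The fold enrichment of MACS2 peaks at matched entries followed the score. The highest fold at a matched entry had a median of 3.00 for the 46 entries scoring under 7, 4.29 for the 178 scoring from 7 to 15 and 11.1 for the 122 scoring 15 or more. Across the 346 matched entries the Spearman correlation of score and highest fold was 0.86, a description over entries that come from the same libraries. Of the matched entries, 59 lay only at MACS2 peaks of under 3-fold, and these had a median score of 7.17.

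The unmatched entry of highest score, peak351, lay on contig 4 from 1529836 to 1530075, with a score of 12.0 and a p-value of 1.54e-33. It was 240 bases wide, and the nearest MACS2 peak lay 3002 bases away, from 1533077 to 1534485, with a fold enrichment of 14.0. The 4 next highest were peak115 on contig 1 from 1773252 to 1773578 (score 9.42), peak146 on contig 10 from 118449 to 118823 (9.27), peak396 on contig 5 from 1570215 to 1570539 (9.20) and peak415 on contig 6 from 547218 to 547543 (8.99). These lay 5696, 2240, 39866 and 4108 bases from a MACS2 peak, respectively. Each of the 5 highest was therefore separated from the nearest MACS2 peak by more than its own width. The other five of the 10 highest scored between 8.34 and 8.99. They were peak470 on contig 7, peak193 on contig 2, peak149 on contig 10, peak248 on contig 3 and peak552 on contig 9.

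At the other end, the 5 lowest scores were 2.46 (peak299, contig 3, from 1886138 to 1886489), 2.57 (peak503, contig 8, from 752158 to 752430), 2.59 (peak56, contig 0, from 2138945 to 2139263), 2.72 (peak277, contig 3, from 1437899 to 1438241) and 2.78 (peak152, contig 10, from 290657 to 290998). All 5 lay at least 8677 bases from a MACS2 peak. Their widths were 273 to 352 bases, so these 5 were not the smallest regions. The 5 narrowest unmatched entries also scored low, from 2.93 to 3.84, all below the unmatched lower quartile of 4.00.

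Unmatched entries were slightly narrower than matched ones. Their median width was 294 bases (284 to 307) with quartiles of 258 and 348, against 313 bases (303 to 324) with quartiles of 277 and 374. The overlap was large, with 87 of the 206 unmatched entries wider than the matched median. The difference was concentrated among the smallest regions: 12 of the 15 entries under 200 bases and 30 of the 47 from 200 to 250 bases were unmatched, against 64 of 192 from 250 to 300, 51 of 131 from 300 to 350 and 45 of 145 from 350 to 400. A narrow region also offers fewer bases for an overlap, so width and the rule are not separate.

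At similar score the width difference had no constant direction among entries up to 389 bases wide. Between scores of 4 and 5, the band with most unmatched entries, the median width was 275.5 bases in the unmatched and 268 in the matched ones. Between 5 and 6, a band with only 10 matched entries of any width, it was 303 against 344. Between 6 and 7 it was 304 in both groups, between 7 and 8 it was 320.5 against 286, and between 8 and 10 it was 318.5 against 310. The 1 unmatched entry scoring between 10 and 15 had 240 bases, against a matched median of 299. Among the unmatched entries of this width class the Spearman correlation of width and score was 0.17.

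The list held 2 width classes with nothing between them. Of all 552 entries, 530 were 153 to 389 bases wide and 22 were 690 to 1008 bases wide. All 22 wide entries had at least 1 flank, from the centre of the peak to its border, of exactly 344 or 345 bases. Wide entries were 4 of the 206 unmatched and 18 of the 346 matched ones. The 4 unmatched ones were peak363 on contig 5 from 109461 to 110468 (1008 bases, score 5.33), peak289 on contig 3 from 1729389 to 1730134 (746 bases, 6.55), peak408 on contig 6 from 329632 to 330350 (719 bases, 3.42) and peak311 on contig 4 from 102953 to 103659 (707 bases, 7.56). In the shape-scored list of CBS_cyp61-_FLAG-SRE1 the wide class was the common one, with 41 of 51 entries at 690 bases or more and a median of 709. The gap between the classes was not empty there, as 6 of the 51 entries lay between 389 and 690 bases.

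In the narrow class a flank of exactly 129 or 130 bases recurred. It was present in 55 of 202 unmatched (27.2%) and 187 of 328 matched entries (57.0%). Within bands of score the groups were closer, and the direction was not constant. Between scores of 4 and 6 such a flank was present in 27 of 105 unmatched (25.7%) and 4 of 13 matched entries (30.8%). Between 6 and 8 the counts were 19 of 35 (54.3%) and 26 of 58 (44.8%). Between 8 and 10 they were 6 of 10 (60.0%) and 19 of 39 (48.7%). In each of these bands the intervals overlapped. Borders thus recurred at fixed distances from the centre, and widths were not read as the length of protected DNA. The narrowest unmatched entry, peak354 on contig 4 from 1578517 to 1578669, had 153 bases and a score of 3.84. It was followed by peak534 on contig 9 (172 bases, 2.93). Next came peak202 on contig 2 (score 2.99), peak160 on contig 10 (3.42) and peak423 on contig 6 (3.68), each of 179 bases.

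**Figure D3:**
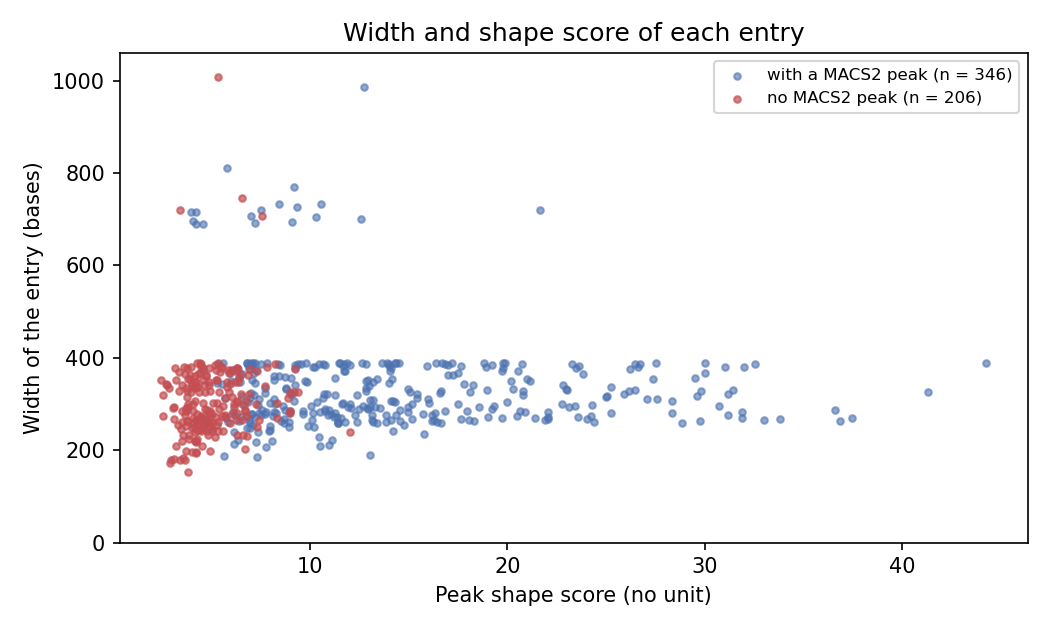
Peak shape score (horizontal axis, no unit) against width in bases (vertical axis) for each of the 206 entries without a MACS2 peak (red) and the 346 with one (blue). No entry lies between 389 and 690 bases, and 4 red points are in the upper class.

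Unmatched entries were found on every contig that held a shape-scored entry, contigs 0 to 10. Their number per contig ran from 12 on contigs 9 and 10 to 25 on contigs 0 and 3. As a share of the contig's entries they ran from 30.4% on contig 2 (17 of 56, 19.9% to 43.3%) to 46.7% on contig 6 (21 of 45, 32.9% to 60.9%), and the intervals of all 11 contigs overlapped. Whether the shares differ between contigs was not tested. Contigs 4 and 6 held 11.2% and 10.2% of the unmatched entries but 8.09% and 6.94% of the matched ones, and contigs 1 and 3 held 11.7% and 12.1% against 14.7% and 15.3%.

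Measured against the highest position listed on each contig, unmatched entries numbered 7.42 per megabase on contig 2 to 14.4 per megabase on contig 8, and matched ones 12.5 per megabase on contig 7 to 23.2 per megabase on contig 3. The median score of unmatched entries stayed between 4.18 (contig 9) and 5.79 (contig 5), and that of matched entries between 10.1 (contig 4) and 14.3 (contig 3), so the 2 ranges of contig medians did not overlap. Small contigs, numbered 11 to 21, had 29 MACS2 peaks of this strain and no shape-scored entry of either kind. Of the unmatched entries, 32 (15.5%) had their centre in the first or last 10% of the contig's listed extent, against 72 of the matched ones (20.8%).

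Along the contigs the unmatched entries were interspersed with matched ones. They formed 126 runs, of which 78 held a single entry, and the longest run held 6. Of the 541 pairs of neighbouring entries, 80 were both unmatched, 216 both matched and 245 mixed. Unmatched entries were 37.3% of the list, and whether these counts differ from a random order at that share was not tested. The nearest other entry lay a median of 14197 bases away from an unmatched entry (11274 to 16981) and 11972.5 bases from a matched one (10084 to 14256). Only 17 of the 206 unmatched entries (8.25%) had another entry within 2000 bases, and 9 of these had a matched one there.

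In 4 places unmatched entries lay within 2000 bases of each other. On contig 3 the wide peak289 enclosed peak290 (1729729 to 1729967, score 4.19), and on contig 4 the wide peak311 enclosed peak312 (103269 to 103518, score 4.92), so that 1 site was listed with both widths. On contig 8, peak507 (786107 to 786395, score 5.41) and peak508 (786194 to 786499, score 6.30) shared bases. On contig 0, peak1 (72503 to 72850, score 4.22) and peak2 (73449 to 73717, score 4.11) lay 599 bases apart. After entries that shared bases were merged, 203 unmatched loci remained.

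Few unmatched entries lay close to a MACS2 peak, so few depended on where a border was drawn. Whether other positions outside MACS2 peaks lie at similar distances was not tested. The distance from border to border had a median of 11123.5 bases (9489 to 13501), quartiles of 5112 and 22150, and a maximum of 100698. It was at most 500 bases for 8 entries, at most 2000 for 22 (10.7%), at most 10000 for 93 (45.1%) and above 50000 for 7. The nearest peak lay at lower coordinates for 95 of them (46.1%). Distance and score had a Spearman correlation of -0.15 among the 206 entries. The nearest peaks had a median fold of 4.09 (3.68 to 4.97), against 4.13 over the whole MACS2 list. A peak nearest to several entries was counted once for each, and that list holds several entries for some sites.

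**Figure D4:**
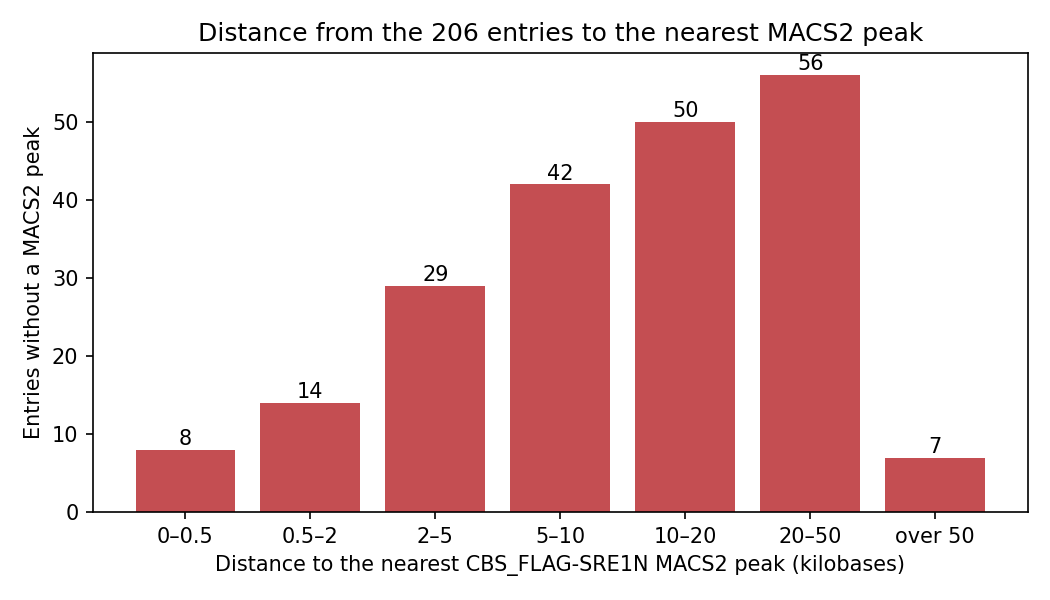
Number of entries without a MACS2 peak (vertical axis) by distance to the nearest MACS2 peak of the same strain, in kilobases and in classes of unequal width (horizontal axis). Of the 206 entries, 8 lie within 0.5 kilobases and 7 beyond 50.

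The entries just outside the rule's limit were peak186 on contig 2 from 435089 to 435330, 71 bases from a MACS2 peak of 2.64-fold, peak505 on contig 8 at 212 bases, peak333 on contig 4 at 246, peak89 on contig 1 at 258 and peak17 on contig 0 at 260. Their scores were 5.58, 5.68, 4.22, 6.97 and 6.05. On the matched side, the entries with the fewest bases shared with 1 MACS2 peak were peak139 on contig 1 (68 bases, score 4.60), peak156 on contig 10 (76, 5.66), peak456 on contig 7 (90, 7.99), peak196 on contig 2 (93, 4.75) and peak430 on contig 6 (105, 7.27). Scores on the 2 sides of the limit overlapped.

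Peaks of CBS_cyp61-_FLAG-SRE1, called on libraries that the rule did not use, were rarely found at unmatched entries. Of all 552 shape-scored entries of CBS_FLAG-SRE1N, 44.9% overlapped the MACS2 list of the other strain. Among unmatched entries it was 11 of 206 (5.34%, 3.01% to 9.31%), and among matched entries 237 of 346 (68.5%, 63.4% to 73.2%). Among matched entries the share was lower at weaker peaks of CBS_FLAG-SRE1N. It was 24 of 59 (40.7%, 29.1% to 53.4%) for entries at peaks of under 3-fold only. For entries at a peak of at least 3-fold it was 213 of 287 (74.2%, 68.9% to 78.9%). These 2 groups also differed in median score, 7.17 and 13.9, so fold and score cannot be told apart here. By score, the matched share was 69 of 101 (68.3%) between 10 and 15 and 113 of 122 (92.6%) at 15 or more. The other strain's MACS2 loci covered 1.44% of the listed contig extent. That is a share of bases, whereas an entry needed only 1 shared base, so it is no reference for these shares of entries. Both MACS2 lists come from 1 caller, and its part in the difference between unmatched and matched entries was not tested.

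At similar scores the share was lower in the unmatched entries in each band from 4 to 10. The intervals were apart in 1 of these bands, but intervals that overlap do not show equal shares. Whether the shares differ was not tested. Between scores of 6 and 7, 1 of 30 unmatched entries (3.33%, 0.591% to 16.7%) and 10 of 27 matched ones (37.0%, 21.5% to 55.8%) overlapped the other strain's list. Between 4 and 5 the shares were 2 of 70 (2.86%, 0.787% to 9.83%) and 1 of 8 (12.5%, 2.24% to 47.1%), and between 5 and 6 they were 2 of 36 (5.56%, 1.54% to 18.1%) and 4 of 10 (40.0%, 16.8% to 68.7%). Between 7 and 8 they were 2 of 7 and 11 of 34, and between 8 and 10 they were 3 of 10 (30.0%, 10.8% to 60.3%) and 29 of 43 (67.4%, 52.5% to 79.5%). In these 4 bands the intervals overlapped. Over the wider band from 4 to 7 the intervals were apart. There the shares were 5 of 136 unmatched entries (3.68%, 1.58% to 8.32%) and 15 of 45 matched ones (33.3%, 21.4% to 47.9%). From 7 to 10 they were 5 of 17 (29.4%, 13.3% to 53.1%) and 40 of 77 (51.9%, 41.0% to 62.7%), with intervals that overlapped. The strongest unmatched entry, peak351, lay 3073 bases from the nearest peak of the other strain.

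**Figure D5:**
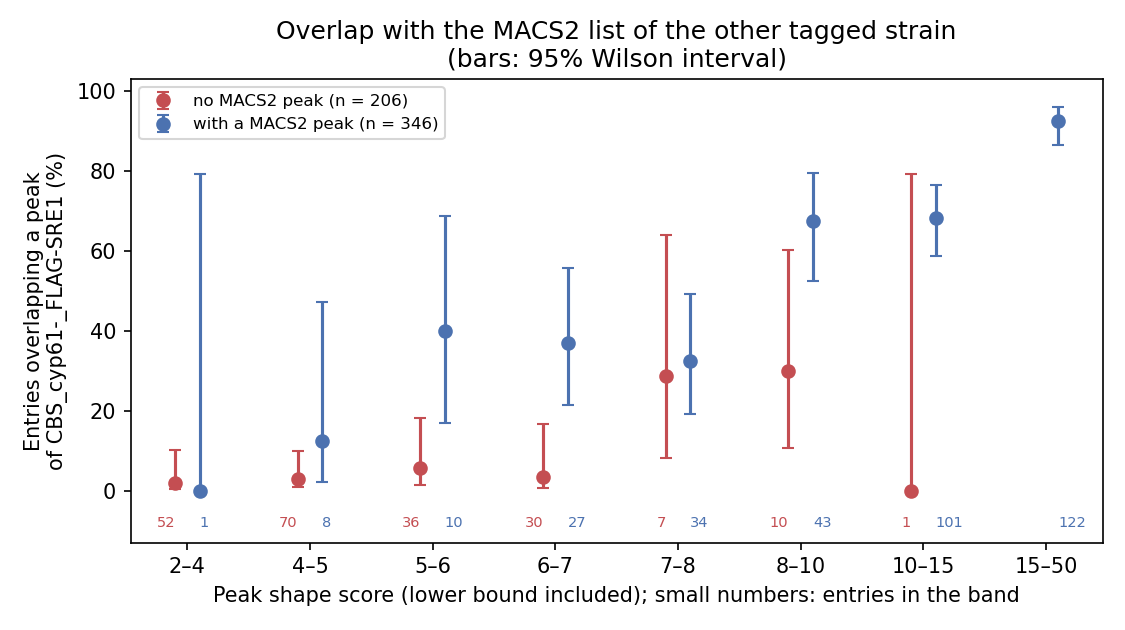
Percentage of CBS_FLAG-SRE1N entries that overlap a MACS2 peak of CBS_cyp61-_FLAG-SRE1 (vertical axis) by band of shape score (horizontal axis), for entries without (red) and with (blue) a MACS2 peak in their own strain, with 95% Wilson intervals and the number of entries beneath. Between scores of 6 and 7 the shares are 3.33% and 37.0% with intervals apart, and in the other bands that hold both kinds the intervals overlap.

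The 11 unmatched entries with a MACS2 peak in the other strain lay on 7 contigs. The 3 of highest score had the 3 highest fold enrichments there. At peak470, on contig 7 from 1090297 to 1090577 (score 8.99), the other strain had a peak from 1089896 to 1090581 of 6.75-fold. At peak149, on contig 10 from 199866 to 200177 (8.89), it had a peak of 6.04-fold, and at peak248, on contig 3 from 385725 to 385993 (8.36), a peak of 5.33-fold. All 3 lay 4360 bases or more from a MACS2 peak of CBS_FLAG-SRE1N.

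At the other eight the fold enrichment was lower. It was 4.08 at peak382 on contig 5 (892427 to 892766), where a second listed peak had 2.49, 3.55 at peak419 on contig 6 (655906 to 656277), 4.26 at peak86 on contig 1 (948751 to 949112), 3.27 at peak292 on contig 3 (1785906 to 1786278) and 2.84 at peak112 on contig 1 (1624895 to 1625148). It was 3.80 at peak15 on contig 0 (381860 to 382130), 4.62 at peak1 on contig 0 and 4.97 at the wide peak408 on contig 6. The highest fold per entry had a median of 4.26, and 1 of the 11 exceeded the median of 6.04 over the 712 peaks of that list. Peaks of that list that overlapped no MACS2 peak of CBS_FLAG-SRE1N had a lower median, 2.39. All peaks at the 11 entries were among these, and their lowest fold was 2.49. At the 11 entries −log10 q ran from 1.45 to 10.5, against a median of 11.6 over the whole list. These 11 entries had a median score of 6.85 and a median width of 340 bases, against 4.66 and 293 for the other 195.

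Seen from the other strain, 149 of its 712 MACS2 entries (20.9%) overlapped no MACS2 peak of CBS_FLAG-SRE1N, and 12 of these 149 (8.05%, 4.67% to 13.5%) lay at an unmatched entry. The shape-scored list of the other strain gave no overlap. It matched 8.88% of the 552 entries, 49 of the 346 matched (14.2%) and 0 of the 206 unmatched ones, where a count of 0 leaves an upper Wilson bound of 1.83%. All 51 entries of that list lay at MACS2 peaks of CBS_FLAG-SRE1N, which leaves little room for an overlap with entries defined by having none. In that list, 5 of the 51 entries (9.80%, 4.26% to 21.0%) had no MACS2 peak of their own strain, against 37.3% in CBS_FLAG-SRE1N. The lists differ in size and in width class, and the part of either in this difference was not tested.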

How the data were processed

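Peak tables of 2 tagged strains were used, 2 per strain, each standing for 3 ChIP-exo libraries per the labels. Per the file headers, the MACS2 tables were deposited with start, end, stated length, a fold enrichment (a ratio over the caller's background) and −log10 of p and q. The other tables were deposited by the authors with region, centre, length, shape score and p-value of each peak. The submitters' processing notes name MACS2, Bowtie2 2.3.5.1, SAMtools, bedtools and deepTools, with no role. The labels give no control or cutoff. For the scoring tool there are only the letters CLC in the title of each shape-scored list. The 18 RNA-seq count columns were not used, because the tables give no gene positions.

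Regions were compared in Python 3.11.15 (pandas 2.3.3, scipy 1.17.1), with positions read as 1-based and inclusive. Signs before a position were removed, and at least 1 shared base counted as an overlap. The split was checked with bedtools 2.31.1, which gave the same 206 entries, and distances were tested on 399 simulated entries. Distance is the difference between facing borders. No test over regions was run, since regions are not replicates. Regions named in the text are those of highest and lowest score, extreme width, smallest distance or overlap, presence in the other strain, or mutual proximity. The regions and these rules were chosen with earlier results of these data known. Alternatives changed the overlap, the peaks and the entries used.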

Additional observations from a re-analysis of the deposited data

How the results depend on the processing

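The number of entries without a MACS2 peak was 206 in the main setting. It ran from 198 to 265 in 9 of 10 alternatives and was 130 in the other. It was 220 with at least 50% of the entry covered and 212 with the peak centre inside a MACS2 entry. It was 198 with a gap of up to 500 bases counted as overlap. Merging entries gave 203 of 538 loci. With entries of p under 1e-5 only, the number was 130 and the median score of those 130 was 5.43, both because low scores were removed. That limit removed mainly unmatched entries, so the share without a MACS2 peak fell below the 37.3% of the main setting. With MACS2 entries of at least 3-fold only, 265 entries had no peak, their median score was 5.22, that of the rest was 13.9, and 13.2% of the 265 overlapped the other strain's list; this setting adds the 59 entries at weaker peaks. Medians of width moved less than their intervals in all alternatives. The alternatives with MACS2 entries stretched to their stated length (203 entries) and with the narrow class only (202) were chosen after seeing the data. No replicate could be left out, since each table pools 3 libraries. No paired analysis was possible because no result comes from values per library. Motifs and genes at the regions were not run.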

Other observations

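In the MACS2 list of CBS_FLAG-SRE1N the stated length differed from end minus start plus 1 in 706 of 1156 entries, by a factor of up to 2.00. The same held for 424 of 712 entries of the other strain. The 1156 entries merged to 720 loci, so the list holds several entries for some sites. In the reverse direction, 591 of the 1156 MACS2 entries (51.1%) overlapped no shape-scored entry. Their median fold was 3.58, against 4.93 for the 565 that did. The shape-scored list is limited to changed genes by its title, so these 591 cannot be read as peaks that a shape score passes over.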
